A study of Mus musculus with 25 samples.

Results

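To describe chromatin at the genes that supply and restrain the partners of myogenic bHLH factors, Spin1 and H3K4me3 peaks were examined at 8 genes of primary myoblasts. The genes were the 3 E protein genes Tcf3, Tcf4 and Tcf12, the 4 Id factor genes Id1, Id2, Id3 and Id4, and Msc, which encodes musculin. They were taken by name from the 26182 genes with a curated RefSeq transcript on GRCm38. No peak value was a criterion, but earlier results of these data were known when they were chosen. The myoblasts came from limb muscle of 10-day-old C57BL/6 mice (C57BL/6 N in the study's methods), were enriched by preplating and were grown in culture, with no genetic change or treatment. Spin1 chromatin was precipitated with a custom anti-SPIN1 antibody, H3K4me3 with its own antibody, and an input library was the control for peak calling. There was 1 library per antibody and no replicate, so no value below has an error, no test was made, and differences between genes are described only. The 22 RNA-seq samples of the series, from Spin1 knockout and control muscle, were not analysed here.

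E proteins are widely expressed basic helix-loop-helix (bHLH) transcription factors. They pair with tissue-restricted bHLH factors such as MyoD and myogenin, and the pair binds the E-box, a motif written CANNTG. Id factors carry the helix-loop-helix but lack the basic region that touches DNA, so that an E protein held by an Id factor cannot bind an E-box, and BMP signalling through Smad proteins is a well-known inducer of Id genes. Musculin, also called MyoR, is a bHLH repressor of undifferentiated muscle cells that also pairs with E proteins. Spin1 is a Tudor-like domain protein that reads H3K4me3, the mark of promoters that are active or poised. The gene Tcf4 meant here encodes E2-2 and is not Tcf7l2, the Wnt effector whose product is also called TCF4 and which marks muscle fibroblasts.

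All 8 genes carried both Spin1 and H3K4me3 at a promoter, defined as TSS±1 kb. The 8 genes had 36 curated transcripts with 12 distinct TSSs, which formed 9 promoters once TSSs less than 2 kb apart were joined, and each of the 9 promoters held 1 peak of each kind. Such occupancy was common. Of all genes with a curated transcript, 50.7% had a Spin1 peak and 61.9% an H3K4me3 peak at a promoter, and 56.7% of the 21000 protein-coding genes had both. At every one of the 9 promoters the Spin1 peak lay wholly inside the H3K4me3 peak, which also held for 91.6% of 11903 protein-coding genes with both. Where the peak centre, and not any overlap, had to lie within TSS±1 kb, 4 of 8 genes kept both peaks, beside 39.7% of all genes. These were Tcf3, Tcf12, Id3 and Msc, whereas at Id1, Id2, Id4 and Tcf4 at least 1 of the peaks was centred farther from a TSS.

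The promoters are shown first by their bases, since H3K4me3 in mammals is closely tied to CpG-rich DNA. The 250 bases upstream of the TSS were taken from RefSeq sequence of build GRCm38.p6, where 5 of the 8 genes were found (Id2, Id3, Id4, Tcf3 and Tcf12). Printed below are the stretches that lie under a Spin1 peak with a score of 3100 and in no annotated exon. They are Id2 on the minus strand (chr12:25096093-25096342), Id3 on the plus strand (chr4:136143572-136143821), Id4 on the plus strand (chr13:48260866-48261115) and the first Tcf12 promoter on the minus strand (chr9:72111894-72112069), 5′ to 3′ with CpG dinucleotides in capitals.
Id2: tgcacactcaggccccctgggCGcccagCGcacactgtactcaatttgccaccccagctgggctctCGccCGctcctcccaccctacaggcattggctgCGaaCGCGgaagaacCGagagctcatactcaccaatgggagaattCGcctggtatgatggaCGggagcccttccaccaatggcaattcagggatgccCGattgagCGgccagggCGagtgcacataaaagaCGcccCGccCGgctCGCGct
Id3: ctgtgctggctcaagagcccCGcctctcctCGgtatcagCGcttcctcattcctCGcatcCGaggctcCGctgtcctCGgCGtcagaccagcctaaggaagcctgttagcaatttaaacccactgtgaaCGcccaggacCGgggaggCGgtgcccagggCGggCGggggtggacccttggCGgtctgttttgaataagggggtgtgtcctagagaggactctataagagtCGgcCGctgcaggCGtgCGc
Id4: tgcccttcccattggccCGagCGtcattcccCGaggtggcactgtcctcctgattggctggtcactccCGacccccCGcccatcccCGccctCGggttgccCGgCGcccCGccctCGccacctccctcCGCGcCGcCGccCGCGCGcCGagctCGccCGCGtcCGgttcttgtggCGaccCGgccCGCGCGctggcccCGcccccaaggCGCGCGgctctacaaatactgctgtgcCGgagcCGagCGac
Tcf12 promoter 1: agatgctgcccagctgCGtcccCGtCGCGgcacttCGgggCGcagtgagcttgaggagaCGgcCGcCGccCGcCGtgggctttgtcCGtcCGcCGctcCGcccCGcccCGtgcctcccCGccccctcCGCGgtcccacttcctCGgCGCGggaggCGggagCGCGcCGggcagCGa
The stretch of Id4 held 35 CpGs in 250 bases, those of Id2 and Id3 18 each, and that of Tcf12 28 CpGs in 176 bases. Over the full window of 300 bases, from 250 before to 50 after the TSS, the median was 7 CpGs for all 32851 promoters in the table and 23 for the 12532 whose TSS lay in a Spin1 peak. The window of Id4 had 39 CpGs, more than 95.6% of all promoters, that of Tcf12 promoter 1 at its first TSS had 41 (96.5%), that of Tcf3 25 (81.6%), that of Id2 21 (75.2%) and that of Id3 19 (71.9%). Tcf12 promoter 2 stood apart with 0 CpGs and a GC content of 36.3%, below all but 4.98% of promoters.

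E-boxes were about as frequent in these promoter windows as in others. The letters CANNTG, searched on both strands, occurred once each in Id2, Tcf3, Tcf12 promoter 2 and the window at the first TSS of Tcf12 promoter 1, and 2 times at the second TSS of that promoter. They were in neither Id3 nor Id4, while 72.3% of all promoters and 60.4% of those with the TSS in a Spin1 peak held at least 1, with a median of 1 per promoter. The single matches of Id2 and of the window at the first Tcf12 TSS were CAGCTG, a form of the E-box that MyoD prefers and that 16.3% of all promoters held. The letters CACCTG were in none of these windows (20.2% of all promoters) and TATAAA likewise (13.6%). The GC-rich palindrome GGCGCC was in Id2 and Id4 (11.9% of all promoters, 24.3% of those in a Spin1 peak). CCAAT, the box bound by NF-Y, was found 3 times in Id2 and 2 times each in Id4 and Tcf12 promoter 2 on either strand, with at least 1 match in 37.4% of all promoters. A match says that the letters are there and nothing about a factor.

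**Figure D1:**
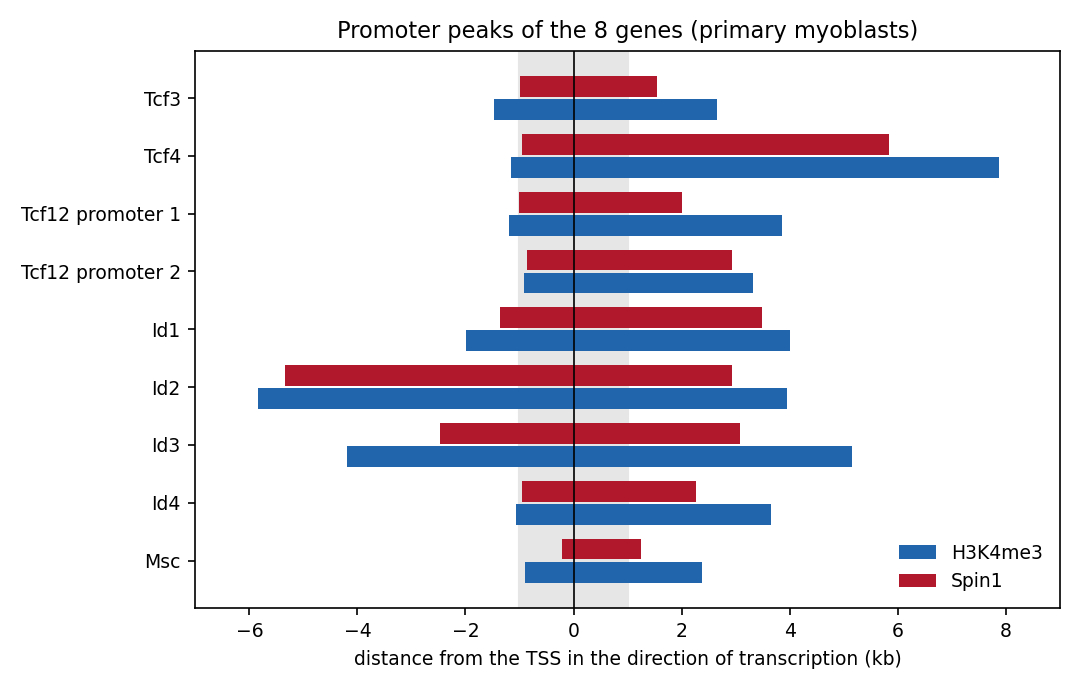
Extent of the Spin1 (red) and H3K4me3 (blue) promoter peak of each of the 9 promoters, with distance from the TSS in kb on the x axis, downstream to the right, and TSS±1 kb shaded. Each red bar lies inside its blue bar, the Id2 peaks reach farther upstream than downstream, and the Msc Spin1 peak is the shortest at 1459 bp.

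The 9 promoters differed widely in how much DNA their peaks took up. The widest Spin1 promoter peak of a gene ranged from 1459 bp at Msc to 8263 bp at Id2, with a median of 4325 bp over the 8 genes. The median over 11911 protein-coding genes with a Spin1 promoter peak was 2295 bp, with quartiles at 1707 and 2993.5 bp. For H3K4me3 the widths ran from 3266 bp at Msc to 9784 bp at Id2, with a median of 5516 bp beside 3250 bp over 14281 genes. Of the 8 genes, 6 were above the upper quartile of all genes for Spin1 (all but Tcf3 and Msc). Id2 (8263 bp), Tcf4 (6792 bp), Id3 (5551 bp) and Id1 (4857 bp) were each wider than more than 95% of all genes for Spin1, namely 99.8, 99.5, 98.4 and 96.7%.

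**Figure D2:**
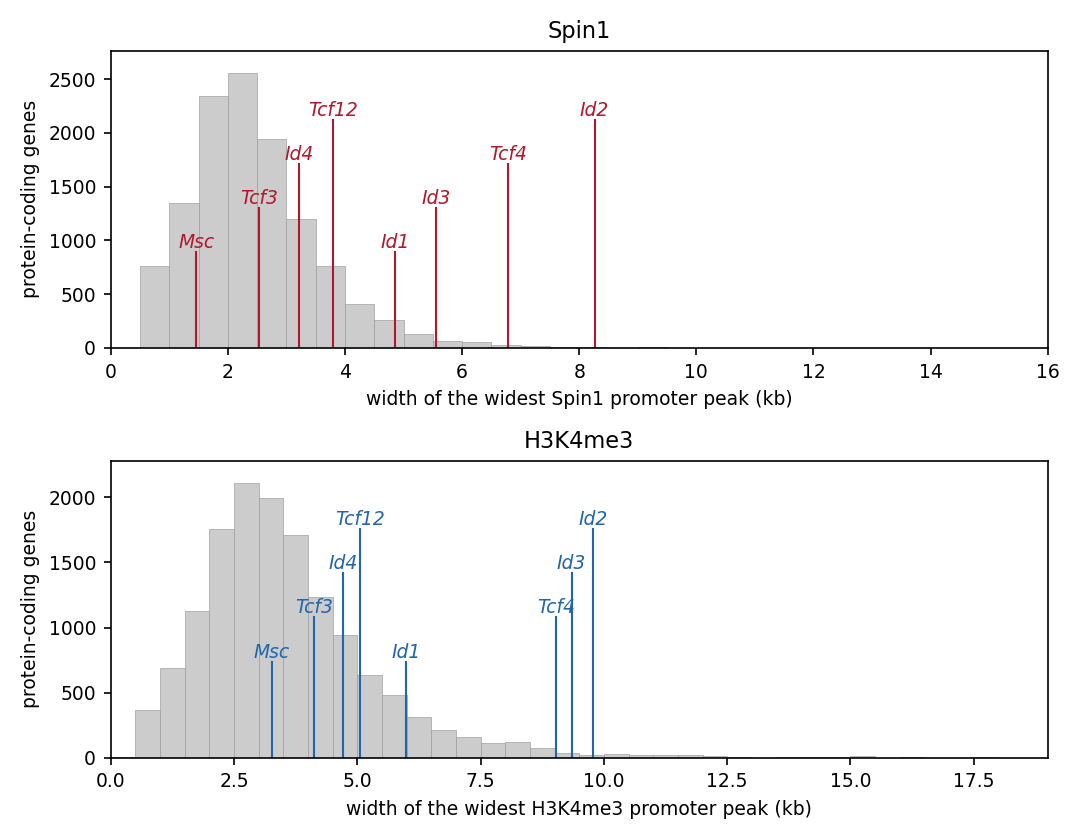
Number of protein-coding genes (grey bars) by the width in kb of their widest Spin1 promoter peak (upper panel) and H3K4me3 promoter peak (lower panel), with vertical lines at the widths of the 8 genes. The heights of the lines carry no value. Id2 lies farthest right in both panels, at 8263 bp for Spin1 and 9784 bp for H3K4me3, and Msc farthest left.

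Peak scores left little room to rank these genes. The score is a p-value against input on a negative log10 scale, times 10, and piles up at 3100, the value that 30.9% of all 17106 Spin1 peaks and 45.2% of all 30763 H3K4me3 peaks reached or passed. At their best promoter, 7 of the 8 genes reached 3100 for Spin1, against 48.9% of protein-coding genes with a Spin1 promoter peak, and all 8 did for H3K4me3, against 89.7%. The exceptions among the Spin1 peaks were Msc, with 734.21, and the second Tcf12 promoter, with 2028.59.

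Id1, Id2 and Id3 were each covered from end to end by 1 Spin1 peak and by 1 H3K4me3 peak. These genes encode short proteins, of 148, 134 and 119 residues in the RefSeq Select transcript, and span 1160, 2294 and 1571 bp. Among protein-coding genes of at most 5000 bp with the peak in question at the promoter, 17.2% lay inside 1 Spin1 peak and 32.0% inside 1 H3K4me3 peak. That group takes in genes longer than Id1, Id2 and Id3, which are harder to cover whole. Coverage was not compared with genes of like length. Id4 (4913 bp, 161 residues) and Msc (2746 bp, 201 residues) were within this size too and were not covered in full. Spin1 peaks took up 46.1% of Id4 and 50.1% of Msc, and H3K4me3 peaks 74.3% and 90.9%.

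Id2, on the minus strand of chromosome 12 from 25093799 to 25096092, was the gene with the widest peaks and an empty neighbourhood. Its Spin1 peak (25093164 to 25101426) reached 5334 bp upstream and 2928 bp downstream of the TSS. It was the only one of the 9 that reached farther upstream than downstream, as was the case at 1657 of 9218 protein-coding genes with 1 TSS. Spin1 covered 84.5% of the Id2 H3K4me3 peak (25092144 to 25101927), more than at 92.2% of genes with both. Within the gene and 50 kb on each side, Id2 had no further peak in either list.

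Id3, on the plus strand of chromosome 4 from 136143822 to 136145392, had nearly as much H3K4me3 but divided Spin1. A single H3K4me3 peak of 9345 bp (136139630 to 136148974) lay over 3 separate Spin1 peaks. The central one of 5551 bp covered the gene and scored 3100, one of 1233 bp lay upstream, near the start of the noncoding Gm42329, with a score of 390.11, and one of 1096 bp lay downstream with 306.49. Together they covered 84.3% of the H3K4me3 peak, and the central one alone was 0.594 times as wide as it. Gm42329 starts under the same central peak, so that its promoter and that of Id3 cannot be told apart in these peaks.

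Id1, on the plus strand of chromosome 2 from 152736251 to 152737410, had a promoter Spin1 peak of 4857 bp (152734885 to 152739741). It reached 1366 bp upstream and 3490 bp downstream of the TSS and covered 81.2% of the H3K4me3 peak of 5981 bp. Id4, on the plus strand of chromosome 13 from 48261116 to 48266028, had the narrowest Spin1 peak of the Id genes, with 3221 bp, which was still wider than at 80.2% of genes. It covered 68.3% of the H3K4me3 peak of 4714 bp. The long noncoding RNA A330033J07Rik starts inside Id4 on the other strand and under both of its peaks.

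Msc had the narrowest and lowest-scoring Spin1 promoter peak of the 8 genes. Starts of Gm9947, predicted in RefSeq and given in GENCODE, also lay under both promoter peaks of Msc. Msc lies on the minus strand of chromosome 1 from 14753344 to 14756089 and has 1 curated TSS. Its Spin1 peak (14754714 to 14756172) was 1459 bp wide, below the lower quartile of all genes (1707 bp), while its H3K4me3 peak (14753593 to 14756858) was 3266 bp wide with a score of 3100, close to the middle of all genes (50.4% were narrower). Spin1 covered 44.7% of the H3K4me3 peak, and only 9.48% of genes with both had a smaller share. Among 11748 protein-coding genes with Spin1 and an H3K4me3 peak of 3100 or more, 14.9% had a lower Spin1 score than Msc and 50.5% were below 3100. When only the 50% of peaks with the highest score in each list were kept, Msc was the 1 gene of the 8 without Spin1.

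The E proteins are much longer, with 651 residues in Tcf3, 670 in Tcf4 and 706 in Tcf12, and are encoded by genes of 24436, 344539 and 267642 bp. Tcf3, which yields the E12 and E47 proteins by alternative splicing, had 17 curated transcripts that all start at 1 TSS (chromosome 10, position 80433635). Its Spin1 peak (80432089 to 80434620) was 2532 bp wide, near that of a typical gene (60.2% were narrower). Its H3K4me3 peak was 4125 bp wide and was covered to 61.4% by Spin1. A TSS of a predicted transcript 11.8 kb into the gene had no peak of either kind.

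Tcf12, which encodes HEB, was the only one of the 8 genes with a pair of curated promoters, 216 kb apart. The first promoter holds the TSSs at 72111819 and 72111201 on the minus strand of chromosome 9 and is used by 3 curated transcripts. The second, at 71896096, lies in intron 8 of the full-length transcript and is used by 2. At the first, the Spin1 peak was 3021 bp wide with a score of 3100 and covered 59.8% of an H3K4me3 peak of 5051 bp. At the second, the Spin1 peak was wider, with 3793 bp, but scored 2028.59, and it covered 89.4% of an H3K4me3 peak of 4241 bp, a larger share than at 96.4% of genes. Both peaks at a second or later promoter were seen at 31.6% of 2153 such promoters of protein-coding genes.

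The second Tcf12 promoter differed from the other promoters in its bases as well. Over the whole Spin1 peak there, the GC content was 35.8% and there were 0.949 CpGs per 100 bases. Of all 11797 Spin1 peaks at promoters, only 0.0763% had a lower GC content and 0.873% fewer CpGs per 100 bases. The peak at the first Tcf12 promoter had 56.7% GC and 7.02 CpGs per 100 bases, above 89.9% of promoter peaks for CpGs. The 250 bases upstream of the second promoter lie within an exon of predicted transcripts and are given by their composition alone, with 0 CpGs.

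**Figure D3:**
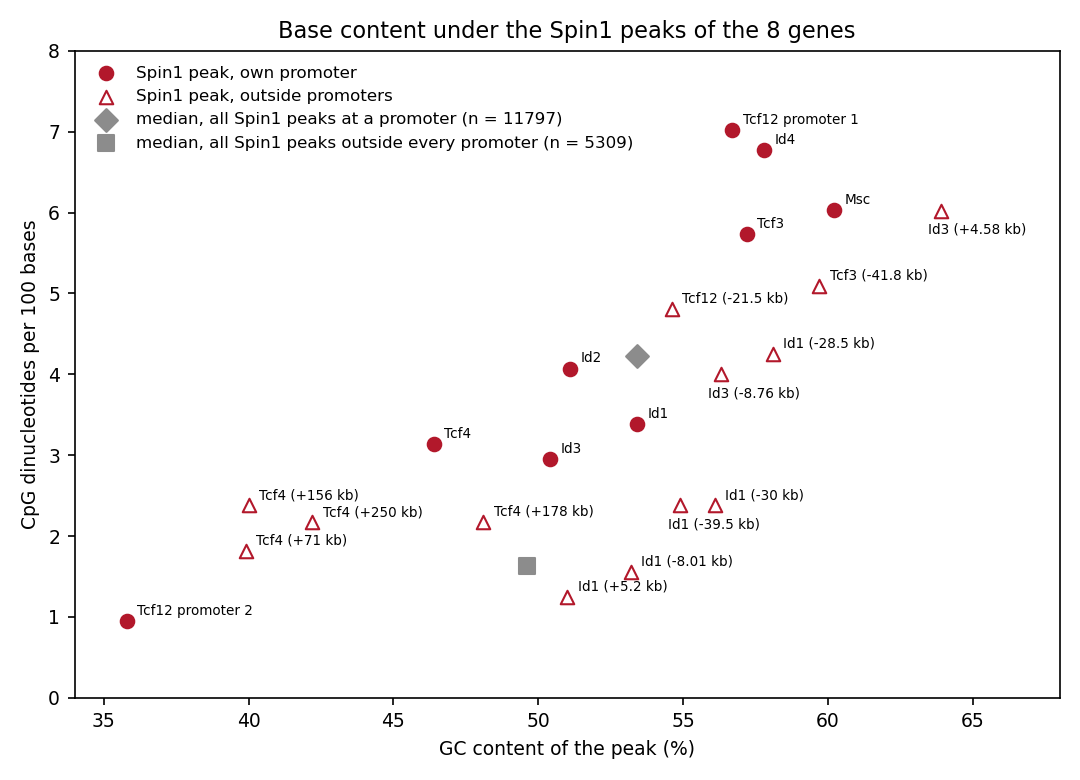
GC content in percent (x axis) and CpG dinucleotides per 100 bases (y axis) of each Spin1 peak at the promoters of the 8 genes (filled circles) and outside every promoter in the genes or within 50 kb (open triangles, with the distance from the first TSS in kb). Grey symbols mark the medians of all Spin1 peaks at promoters (53.4% GC, 4.23 CpGs) and outside promoters (49.6%, 1.63). Tcf12 promoter 2 lies alone at the lower left, and the Tcf12 peak at −21.5 kb lies above the promoter median in both.

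The promoters did not share a base composition. GC content under the 9 promoter Spin1 peaks ran from 35.8 to 60.2% with a median of 53.4%, the same as over all Spin1 promoter peaks, and the median CpG density was 4.07 per 100 bases beside 4.23. The broad peaks of Id3 (2.95), Tcf4 (3.14) and Id1 (3.38) had fewer CpGs per 100 bases than some narrower ones. These were Tcf12 promoter 1 (7.02), Id4 (6.77), Msc (6.03) and Tcf3 (5.73). The order did not follow width throughout. The widest peak, at Id2, had 4.07, and the 3793 bp peak of Tcf12 promoter 2 had the fewest, 0.949. A broad peak takes in more DNA away from the TSS, but a link between width and CpG density was not tested. CAGCTG was present in 88.9% of the 9 peaks, all but that of Tcf3, beside 64.4% of all Spin1 promoter peaks. It was found 8 times under the peak of Id2 and 7 times each under those of Id1 and Id3, which as wide peaks offer more places for a match. Per kb these were 0.968, 1.44 and 1.26 matches, above 80.2, 91.9 and 88.6% of promoter peaks.

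Away from promoters, the 8 genes differed more than at them. In the gene bodies and 50 kb on each side there were 29 Spin1 peaks, of which 9 were at the genes' own promoters, 7 at promoters of other genes and 13 outside every curated promoter. Of the 53 H3K4me3 peaks, 36 were outside promoters. Over all protein-coding genes, 31.3% had such a Spin1 peak and 60.6% such an H3K4me3 peak. Among the 8 genes it was 5 for each mark, namely Tcf3, Tcf4, Tcf12, Id1 and Id3, whereas Id2, Id4 and Msc had neither. Each of the 13 Spin1 peaks overlapped an H3K4me3 peak, as did 72.6% of all 5309 Spin1 peaks outside promoters. In the other direction, 11 of the 36 H3K4me3 peaks overlapped Spin1, and 17.6% of 16158 did so in the whole list. The median score of the 13 Spin1 peaks was 412.69 beside 144.71 for all Spin1 peaks outside promoters, and 2 of them reached 3100.

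**Figure D4:**
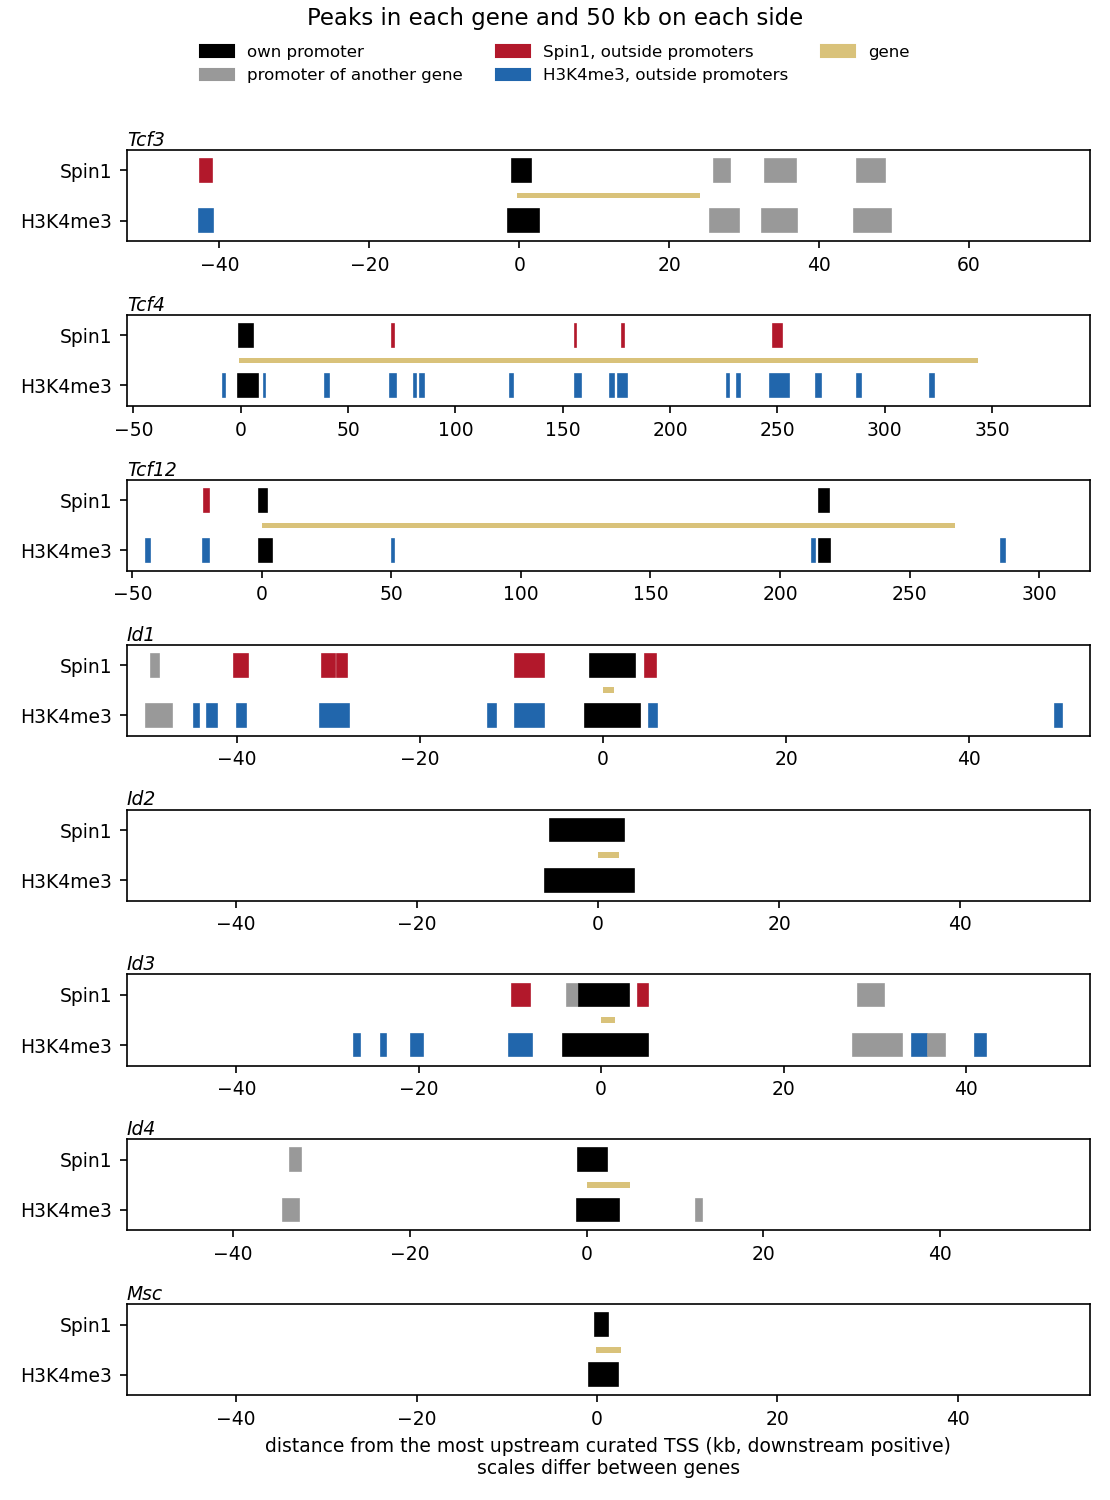
Spin1 and H3K4me3 peaks of each gene and 50 kb on each side, by distance in kb from the most upstream curated TSS, downstream to the right, with the gene as a yellow bar and a scale of its own for each gene. Peaks at the gene's own promoter are black, those at promoters of other genes grey, and those outside promoters red (Spin1) or blue (H3K4me3). Tcf4 has 16 blue bars and Id1 has 5 red ones, whereas Id2 and Msc have only their own promoter peaks.

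Id1 had the most Spin1 peaks outside promoters, 5 in all beside 8 H3K4me3 peaks. Among 2355 protein-coding genes of 0.5 to 2 times its length, 99.6% had fewer Spin1 peaks and the median was 0. The strongest was centred at −8.01 kb from the TSS (152726641 to 152729846), with a width of 3206 bp, a score of 3100 and an H3K4me3 peak of nearly the same extent (3199 bp, 3100). No annotated transcript of RefSeq or GENCODE starts under it. Farther upstream, at −28.5 and −30.0 kb, a pair of Spin1 peaks with scores of 412.69 and 682.04 lay under 1 H3K4me3 peak of 3221 bp, and at 5.2 kb downstream a Spin1 peak scored 272.98.

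At −39.5 kb from Id1 the order of the marks was turned round. The Spin1 peak there was 1512 bp wide with a score of 1358.46, over an H3K4me3 peak of 944 bp with a score of 124.44, and a GENCODE transcript of Gm26841 starts in it. Scores of the 2 lists cannot be set against each other, but each can be placed in its own list, where 51.4% of Spin1 peaks and 20.8% of H3K4me3 peaks scored lower. Among the 13 Spin1 peaks, 3 were wider than the H3K4me3 peak beneath, compared with 9.92% of 3852 such peaks outside promoters. The other 2 were the peaks at −8.01 and 5.2 kb of Id1.

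Tcf12 and Id1 each had a strong Spin1 peak outside promoters without any annotated start, and these differed in their bases. The middle 200 bases of the Tcf12 peak at −21.5 kb (chr9:72133176-72133375, minus strand) and of the Id1 peak at −8.01 kb (chr2:152728144-152728343, plus strand) are given from GRCm38 with CpGs in capitals. Neither stretch overlaps an annotated exon.
Tcf12 at −21.5 kb: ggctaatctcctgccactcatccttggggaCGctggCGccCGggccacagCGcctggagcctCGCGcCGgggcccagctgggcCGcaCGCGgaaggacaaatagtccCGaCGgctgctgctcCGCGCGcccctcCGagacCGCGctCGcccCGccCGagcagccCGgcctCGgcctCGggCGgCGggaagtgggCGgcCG
Id1 at −8.01 kb: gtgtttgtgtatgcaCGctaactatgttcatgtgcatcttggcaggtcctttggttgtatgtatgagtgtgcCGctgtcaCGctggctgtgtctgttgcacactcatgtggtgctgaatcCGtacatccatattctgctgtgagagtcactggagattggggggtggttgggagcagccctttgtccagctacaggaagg
The Tcf12 stretch held 28 CpGs and 77.0% GC, like a CpG-rich promoter, and 1 CANNTG match, which was CAGCTG. The Id1 stretch held 4 CpGs and 51.5% GC, with 2 CANNTG matches. Over the full peaks the CpG density was 4.81 per 100 bases at Tcf12, above 89.1% of Spin1 peaks outside promoters, and 1.56 at Id1, close to their median of 1.63. CAGCTG was found 3 times in the full Tcf12 peak and 5 times in the full Id1 peak.

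The upstream Tcf12 peak (72132287 to 72134263) had a Spin1 width of 1977 bp and a score of 2529.32, higher than that of the gene's own second promoter, and its H3K4me3 peak of 2500 bp scored 3100. Tcf3 had 1 peak of each kind outside promoters, at −41.8 kb, with a Spin1 score of 971.97 and an H3K4me3 score of 3100, at the start of the predicted noncoding gene Gm40716. Downstream of Tcf3, the promoters of Uqcr11 (a subunit of respiratory complex III), Mbd3 (a subunit of the NuRD complex) and Mex3d (an RNA-binding protein) each held both marks with scores of 3100 or more. At Id3, an H3K4me3 peak of 2601 bp and score 3100 at −8.85 kb overlapped a Spin1 peak of 1927 bp that scored 399.02, and the first promoter of E2f2, a cell cycle transcription factor, held both marks at 3100, 29.6 kb downstream. A second curated start of E2f2 lay under an H3K4me3 peak at 36.8 kb that scored 430.72, with no Spin1. Id4 had both marks at the start of the noncoding Gm36183, with scores of 473.46 for Spin1 and 711.67 for H3K4me3. The H3K4me3 peak at A330048O09Rik, near Id4, scored 97.96 and had no Spin1. At −48.9 kb from Id1, the promoter of Mcts2 had a Spin1 score of 239.21 and an H3K4me3 score of 3100.

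Tcf4 carried the longest series of H3K4me3 peaks. It spans bases 69343429 to 69687967 of chromosome 18 on the plus strand, and its 6 curated transcripts start at 3 TSSs within 1 promoter (69344492 to 69346160). The promoter Spin1 peak of 6792 bp reached 5837 bp downstream of the first TSS and covered 75.2% of an H3K4me3 peak of 9030 bp. Outside the promoter there were 16 H3K4me3 peaks, more than at 99.5% of 1074 genes of 0.5 to 2 times its length, where the median was 2. Spin1 had 4 peaks outside the promoter, more than at 93.5% of those genes.

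The Spin1 peaks within Tcf4 were all at H3K4me3 peaks but were not all alike. In intron 8, 250 kb downstream of the first TSS, a Spin1 peak of 4566 bp (69592110 to 69596675) scored 3100 and lay in an H3K4me3 peak of 8680 bp, nearly as wide as that of the promoter. A predicted Tcf4 transcript starts there at 69593583, and a GENCODE transcript of Tcf4 starts under the same peak. In intron 6, at 178 kb, a Spin1 peak of 1007 bp scored 187.12 under an H3K4me3 peak of 4278 bp that scored 3100. Of a group of 7 predicted TSSs there, 1 lay inside the Spin1 peak and 2 inside the H3K4me3 peak. Each of the 2 peaks also held a GENCODE start of Tcf4. The Spin1 peaks at 71.0 kb (226.53) and 156 kb (98.57) were 716 and 755 bp wide, and their H3K4me3 peaks scored 1938.41 and 3100 and held GENCODE starts of Tcf4. A further group of 3 predicted TSSs, 218 kb downstream, had no peak of either kind. At Tcf12, of 2 promoters known from predicted transcripts alone, 1 had an H3K4me3 peak (score 239.66) and neither had Spin1.

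The partners of these genes were counted from fixed lists. Of the 4 myogenic regulatory factor genes, the muscle partners of E proteins, 3 had both marks at the promoter. Myod1 (4891 bp) and Myog (3621 bp) had Spin1 scores of 3100, Myf5 had 1494.67, and Myf6 had H3K4me3 only (2308.48). Of 16 bHLH genes of other tissues, 9 had both marks, and none reached a Spin1 score of 3100. Their median Spin1 width was 751 bp beside 4325 bp for the 8 genes, but the widths were uneven. Twist2 (3583 bp, score 2967.99), Twist1 (3330 bp, 2918.38) and Scx (2844 bp, 2059.21) were wider than the median of protein-coding genes (2295 bp). The narrowest, at Mesp1, was 685 bp wide. Tcf21, Neurod1, Neurog1 and Ptf1a had H3K4me3 only, and Tcf23, Hand1 and Lyl1 had neither. Of 16 BMP pathway genes, 14 had both marks, and 7 reached a Spin1 score of 3100. Among these 7 were the receptors Bmpr1a and Bmpr2, the Id activators Smad1 and Smad5, and Smad6, with the widest Spin1 peak of the list (6263 bp). Below 3100 were, among others, Bmpr1b (1608.64), Smad9 (1291.59) and Bmp2 (156.89). Bmp7 had H3K4me3 only, and Bmp4 had neither. The shares of all protein-coding genes given above (56.7% with both, 48.9% of those with Spin1 at 3100) apply to these counts too.

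The labelled cell type was checked against markers, to be read beside the 56.7% of protein-coding genes with both marks and the 61.9% of all genes with H3K4me3. All 8 myoblast markers had both marks. The Spin1 score was 3100 at 6 of them, all but Myf5 (1494.67) and Cdh15 (2139.7). Among protein-coding genes with a Spin1 promoter peak the share was 48.9%. Of 6 fibroblast markers, 3 had both, namely Col1a2 (3100 in both lists), Pdgfra (Spin1 score 2392.84) and Col1a1 (1275.06). The other 3 had H3K4me3 only (Thy1, Dcn and Lum). The part of fibroblasts, which preplating reduces, in the peaks of the 8 genes was not tested. Both marks were seen at 0 of 5 endothelial, 0 of 5 macrophage or blood and 0 of 3 hepatocyte markers, at 1 of 4 adipocyte markers (Cebpa, at 3100 for each) and at 1 of 4 neuronal markers (Elavl4, Spin1 score 224.9). H3K4me3 without Spin1 was found at 3 of 5 endothelial markers (Kdr with a score of 3100), at the other 3 neuronal markers (Syt1 with 3100), at 1 macrophage marker (Cd68, 51.78) and at 1 adipocyte marker (Fabp4, 300.27). The part of such cells in the peaks of the 8 genes was not tested either. A peak list does not say in which cells, or on which allele, the 2 marks were found together.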

How the data were processed

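Primary myoblasts were studied by ChIP-seq with 1 Spin1, 1 H3K4me3 and 1 input library. Per the labels and the study's methods, paired-end reads were aligned by the authors to mm10 (GRCm38) using bowtie 2, and peaks were called against input using MACS 1.4.2, at a false discovery rate of at most 1%. The deposited lists give start, end and a score per peak, which the authors' caller computed as 10 times the negative log10 of a p-value. The score grows with depth and width and was compared only within a list. Read depth is not given in the lists, so the precision of a score or a width is unknown, and a region without a peak may hold a signal below the limit.

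Peaks were compared in Python 3.11.15 (pandas 2.3.3, NumPy 2.4.6) with curated transcripts of RefSeq annotation release 108.20200622 on 21 chromosomes. All coordinates count from 1. A promoter was TSS±1 kb, TSSs of a gene less than 2 kb apart were joined, and an overlap of 1 bp counted. Shares of all genes are given for comparison and are not a test. The overlap code was tested on simulated peaks with known answers. Named were all 8 genes with each of their promoters and Spin1 peaks, and neighbours with a peak at their promoter. Of the H3K4me3 peaks outside promoters, some were named and the rest only counted. In the lists of bHLH partners and BMP pathway genes, members that lacked a peak were named where 5 or fewer. In the marker lists such members were named only in part. Further list members were picked with their values in view. The 8 genes, the lists and the alternatives were chosen with earlier results of these data known. The size limit of 5 kb, the comparison with genes of like length and the base content under peaks were added after the peaks were seen. Protein sequences were not used here.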

Additional observations from a re-analysis of the deposited data

How the results depend on the processing

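The alternatives were promoter windows of 0.5 and 2 kb, only peaks scoring 100 or more, only the highest-scoring 50%, peak centres, predicted transcripts, 1 TSS per gene, other ways to join TSSs and other flanks. Of 64 such values for the counts and medians of the 8 genes, 59 stayed within 1.5 times. This rule compared counts and not shares, so some falls in a share passed it. With predicted transcripts added, Spin1 was at 11 of 15 promoters (32.5% of all promoters), H3K4me3 at 12 of 15 (42.8%) and both at 11 of 15 (32.3%). With peak centres, Spin1 was at 6 of 9 promoters (43.9%). With peak centres, H3K4me3 was counted at 5 of 8 genes (50.5% of all genes) and 5 of 9 promoters (48.4%), and both marks at 4 genes (39.7%) and 4 promoters (37.1%). With flanks of 100 kb, H3K4me3 peaks outside promoters rose from 36 to 55. The share of all genes with Spin1 fell from 50.7% to 38.1% for the highest-scoring 50% and to 38.4% once genes with only predicted transcripts were added. No paired analysis was possible because each antibody has a single library and no test was made. Replicate spread and depth are unknown, so how far a width or score would move in a second library cannot be given.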
